A study of Mus musculus with 2 samples.

Results

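The TNF and TNF receptor superfamily was described in sorted Langerhans cells, epidermal antigen-presenting cells marked by Langerin, from mice of 2 genotypes. Its members were taken by symbol: every gene with a probe set of its own on the array whose symbol was Tnf or Ltb, or began with Tnfsf or Tnfrsf and a digit. This gave 31 of 19937 genes, 11 ligands and 20 receptors, each read by 1 probe set. The genes Tnfsf12 and Tnfsf13 share 1 probe set under several symbols and were not read singly.

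The 2 genotypes were Il34+/LacZ, with LacZ in 1 of the 2 copies of Il34, and Il34LacZ/LacZ, with LacZ in both, so the comparison group also carried a disrupted copy. IL-34, which keratinocytes make, binds the CSF1 receptor. All mice were 8 to 12 weeks old and had been exposed to ultraviolet light for 30 min, and cells positive for Langerin and Epcam were taken 21 days later. Strain, sex and the number of animals behind each array are not stated, and no unexposed mice were analysed here. Each genotype was measured on 1 array, so there is no replicate error and no test between genotypes, and every difference below compares these 2 samples.

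Ligands of this superfamily are mostly trimeric membrane proteins, some of them shed, and their receptors signal by recruiting adaptors of the TRAF family or, through a death domain, FADD and caspase-8. The usual outputs are NF-kB activation, costimulation of lymphocytes and, for death receptors, apoptosis. In skin, TNF is known as a cytokine released after ultraviolet exposure that mobilises Langerhans cells, and RANK, encoded by Tnfrsf11a, as a receptor that supports them.

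Values are intensities on a linear scale. Differences are Il34LacZ/LacZ minus Il34+/LacZ of log2(intensity + 16), which understates the change of dim genes, and folds are on the same scale. A floor of 48.7 was set at the median intensity of the table. The only error the data hold is the disagreement between probe sets of one gene, an SD of 0.63 on the log2 scale (1.55-fold, from 614 genes), which does not cover animals or sorts. Because the difference varied with level over all genes, each value is also given after removal of a loess trend on the level. Levels of different genes come from different probes and were not compared.

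The sorting markers were read well above the floor on both arrays, Cd207 (Langerin) at 3153 in Il34+/LacZ and 1852 in Il34LacZ/LacZ, and Epcam at 633 and 708. Csf1r, the receptor of IL-34, read 2507 and 1511, and Il34 itself 39.4, below the floor, and 64.4. The targeted gene thus read higher in the sample labelled as having both copies disrupted, by a measured 0.54 and by less against the floor. That difference is within 1 probe set SD, and the position of the probes relative to the LacZ insertion is not known here, so the reading does not check the genotype labels. The T cell markers Cd3e, of the T cell receptor complex, and Thy1 were also far above the floor on both arrays. Cd3e read 1245 in Il34+/LacZ against 1250.3 in Il34LacZ/LacZ, and Thy1 2664 against 2082. Several members below are known mainly from T cells, and the part of T cell RNA in their levels was not tested. In bulk RNA, fewer cells of a type and less RNA per cell cannot be told apart.

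Of the 31 members, 27 were at or above the floor on at least 1 array, 9 ligands and 18 receptors. Tnfrsf26 and Tnfsf13b read at least 1.5-fold higher in Il34LacZ/LacZ, 2 of 27 (7.41%), where 16% of the 12843 genes at or above the floor did. Tnfrsf1a, Tnfrsf1b, Tnfrsf9 and Tnfrsf23, all receptors, read at least 1.5-fold lower, 4 of 27 (14.8%) against 29.9% of all genes. No member reached 2-fold in either direction. Both shares were smaller than those of all genes, and 22 of the 27 members lay within 1 probe set SD of no difference.

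After removal of the trend, 4 members read at least 1.5-fold higher (Tnfsf9, Tnfsf11, Tnfsf13b and Tnfrsf18), 14.8% against 13.9% of all genes. Only Tnfsf10 read lower by that measure, 3.70% of the members against 18.6% of all genes. With quantile normalization the split was 5 higher and 2 lower, and median centring of the arrays gave 2 higher and 7 lower, so the balance of directions depended on the scaling. The median difference of the members was -0.01, against -0.16 for all genes. It was 0.15 against 0.03 with the trend removed.

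**Figure D1:**
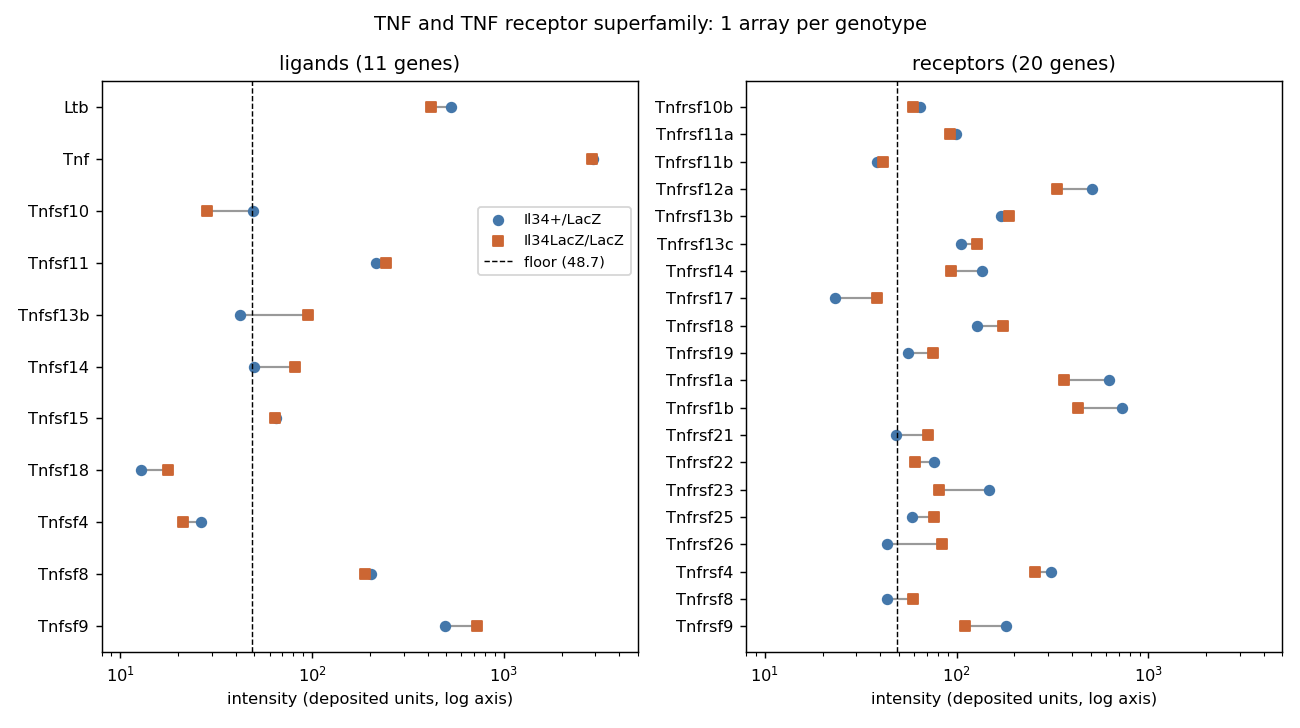
Intensity (log axis) of the 11 ligands and 20 receptors on the Il34+/LacZ array (circles) and the Il34LacZ/LacZ array (squares), 1 array each, with the floor of 48.7 as a dashed line. The symbols of Tnf nearly coincide, and Tnfrsf1a and Tnfrsf1b read lower in Il34LacZ/LacZ.

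Ligands and receptors were also taken apart. The 9 ligands had a median difference of -0.00 and the 18 receptors one of -0.10. With the trend removed these were 0.39 and 0.03. On that scale 7 of 9 ligands and 11 of 18 receptors lay above 0, beside 6677 of all 12843 genes. As deposited, 4 of 9 ligands and 8 of 18 receptors did, beside 5567 of the 12843 genes. None of the 9 ligands and 4 of the 18 receptors (22.2%) read at least 1.5-fold lower as deposited, beside 29.9% of all genes. With the trend removed 1 ligand (11.1%) and 0 receptors did, beside 18.6%. At least 1.5-fold higher as deposited were 1 ligand (11.1%) and 1 receptor (5.56%), beside 16% of all genes. With the trend removed 3 ligands (33.3%) and 1 receptor (5.56%) were higher, beside 13.9%. The contrast of ligands and receptors thus depended on the scale.

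**Figure D2:**
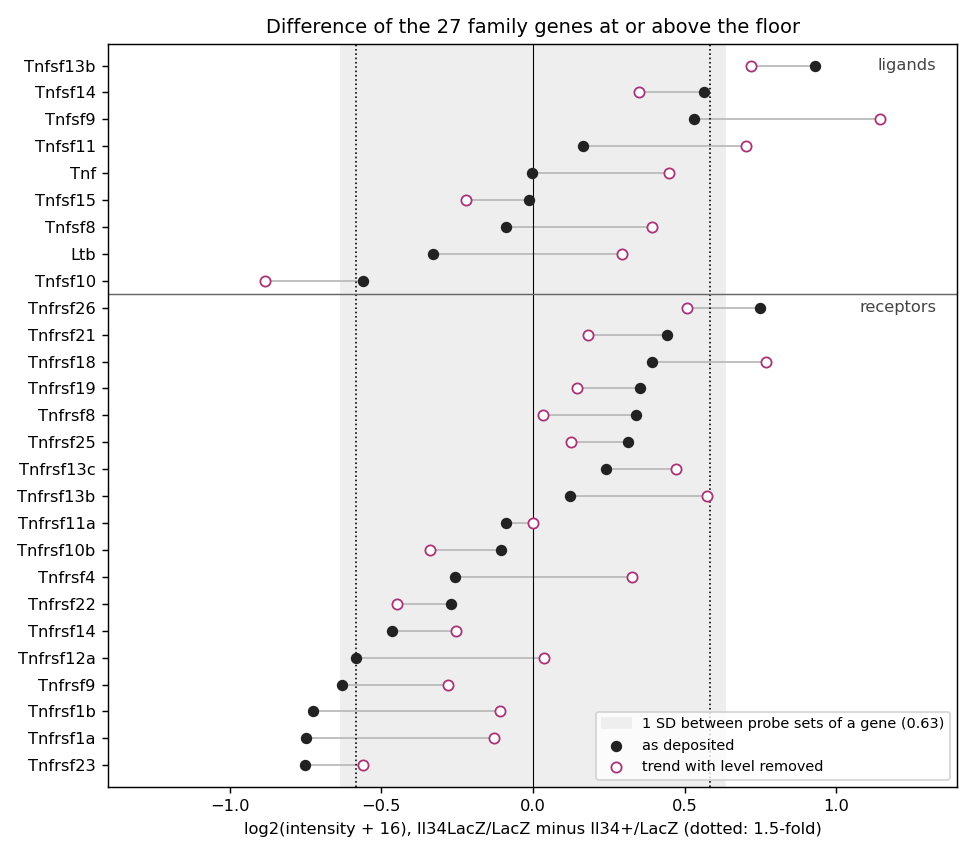
Difference of each of the 27 members at or above the floor, Il34LacZ/LacZ minus Il34+/LacZ on the log2(intensity + 16) scale, as deposited (filled) and with the trend with level removed (open). Dotted lines mark 1.5-fold and the grey band 1 SD between probe sets of a gene (0.63). Removing the trend moved Tnfsf9 to 1.14 and Tnfrsf1a and Tnfrsf1b to -0.13 and -0.11.

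TNF itself read almost the same in both genotypes. Tnf, the founding ligand of the family, read 2905 in Il34+/LacZ against 2897 in Il34LacZ/LacZ and so differed by -0.00. Trend removal gave 0.45, within 1 probe set SD, and over the 9 settings tried it ran from -0.15 to 0.45, so it has no settled direction.

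Both receptors of TNF read lower in Il34LacZ/LacZ. Tnfrsf1a, the broadly expressed death domain receptor, read 623 and 364, 1.68-fold lower. Tnfrsf1b, the receptor without a death domain that is typical of leukocytes, read 724 and 432, 1.65-fold lower. Their differences of -0.75 and -0.73 were beyond 1 probe set SD as deposited but -0.13 and -0.11 with the trend removed, so they were close to that of the typical gene of their level. Both stayed below 0 in all 9 settings, with -0.90 to -0.13 for Tnfrsf1a and -0.87 to -0.11 for Tnfrsf1b. For these and the members below, only the changes of scaling among the settings could turn a sign.

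The 250 bases upstream of Tnf, of its genomic neighbour Ltb and of both TNF receptor genes are shown. They were chosen because, as deposited, Tnf read alike in both genotypes while its receptors read lower in Il34LacZ/LacZ. With the trend removed Tnf stood at 0.45 and Tnfrsf1a and Tnfrsf1b at -0.13 and -0.11, all within 1 probe set SD. The sequences are RefSeq's, assembly GRCm38.p6, on the gene's strand, 5′ to 3′, and end at the base before the annotated start. Tnf is at chr17:35202008-35202257 (minus strand), Ltb at chr17:35194257-35194506 (plus), Tnfrsf1a at chr6:125349473-125349722 (plus) and Tnfrsf1b at chr4:145246871-145247120 (minus). Capitals mark matches, on either strand, to the kB consensus of NF-kB, the AP-1 motif TGANTCA or the TATA motif TATAAA.
Tnf: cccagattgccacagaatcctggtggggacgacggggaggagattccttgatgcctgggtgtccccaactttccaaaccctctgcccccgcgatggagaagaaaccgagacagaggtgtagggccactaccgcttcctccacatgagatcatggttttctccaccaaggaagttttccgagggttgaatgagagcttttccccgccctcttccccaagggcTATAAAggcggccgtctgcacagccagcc
Ltb: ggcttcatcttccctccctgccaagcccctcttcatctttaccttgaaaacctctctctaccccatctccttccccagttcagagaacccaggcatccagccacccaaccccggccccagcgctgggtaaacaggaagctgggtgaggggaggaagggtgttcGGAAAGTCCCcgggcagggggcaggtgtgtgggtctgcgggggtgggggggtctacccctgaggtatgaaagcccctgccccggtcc
Tnfrsf1a: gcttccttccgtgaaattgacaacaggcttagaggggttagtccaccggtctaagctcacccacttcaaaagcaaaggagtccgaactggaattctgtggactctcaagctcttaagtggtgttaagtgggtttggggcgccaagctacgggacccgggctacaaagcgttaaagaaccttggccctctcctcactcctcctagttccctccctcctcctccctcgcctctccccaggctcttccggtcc
Tnfrsf1b: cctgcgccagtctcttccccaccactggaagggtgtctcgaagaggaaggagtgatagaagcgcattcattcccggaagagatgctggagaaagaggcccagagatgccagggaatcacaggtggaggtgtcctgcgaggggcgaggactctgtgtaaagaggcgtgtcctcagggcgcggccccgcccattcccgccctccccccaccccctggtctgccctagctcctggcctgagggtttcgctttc

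Tnf held 1 match, the TATA motif 29 to 24 bases before the start, and Ltb 1 match, the kB consensus 87 to 78 bases before it. Neither receptor sequence held any of the 3 motifs, and no matches overlapped. Of all 32851 such windows in the table, 7.25% held the kB consensus, 6.75% the AP-1 motif and 12.4% the TATA motif. Sequences were at hand for 25 of the 31 members. The kB consensus was found in 4 of them (Ltb, Tnfrsf8, Tnfrsf9 and Tnfrsf25), AP-1 in 4 (Tnfrsf8, Tnfrsf9, Tnfsf13b and Tnfsf14) and TATA in 5 (Tnf, Tnfrsf17, Tnfrsf23, Tnfsf11 and Tnfsf18). These matches are descriptions of letters, and no binding was measured. Sites beyond the 250 bases and variants of the 3 motifs were not sought, so a sequence without a match may still have such sites. Members with the kB consensus read in either direction, with Tnfrsf9 at -0.63 and Tnfrsf8 at 0.34.

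The lymphotoxin and LIGHT genes differed little. Ltb, the membrane anchor of the lymphotoxin heterotrimer, read 529 and 418, differing by -0.33, but by 0.29 after trend removal. Tnfsf14, which encodes LIGHT, read 49.9 and 81.3, 1.48-fold higher, just under 1.5-fold and near the floor in Il34+/LacZ. Tnfrsf14, the receptor HVEM that binds LIGHT, read 135 and 93.7, 1.38-fold lower, and stayed below 0 in all 9 settings (-0.61 to -0.25). LIGHT and its receptor thus read in opposite directions, each within 1 probe set SD.

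The RANK system showed no difference beyond the probe set SD as deposited. Tnfsf11, which encodes RANK ligand, read 215 and 244, a difference of 0.17. With the trend removed it was 0.70, past 1.5-fold, and over the settings it ran from 0.02 to 0.70. Tnfrsf11a, RANK itself, read 99.5 and 92.7, differing by -0.09, or by 0.00 after trend removal. Tnfrsf11b, the soluble decoy osteoprotegerin, was below the floor on both arrays at 38.4 and 41.3.

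The CD137 system read in opposite directions for ligand and receptor, each within 1 probe set SD as deposited. Tnfsf9, the CD137 ligand of antigen-presenting cells, read 495 in Il34+/LacZ against 723 in Il34LacZ/LacZ. It was 1.44-fold higher (0.53), and with the trend removed 1.14, the highest value of the 27 members. It was above 0 in all 9 settings, with 0.38 to 1.14. Tnfrsf9, CD137 itself, a costimulatory receptor of activated lymphocytes, read 180.4 and 111, 1.55-fold lower (-0.63), or -0.28 with the trend removed. It was below 0 in all 9 settings.

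The receptor genes of the OX40 and GITR costimulatory systems lay within 1 probe set SD as deposited. Tnfrsf4, the receptor OX40 of activated T cells, read 311 and 258, a difference of -0.26 but 0.33 with the trend removed. Tnfrsf18, the receptor GITR of regulatory and activated T cells, read 128 and 174, 1.31-fold higher (0.39) and 0.77 with the trend removed. Their ligands Tnfsf4 and Tnfsf18 were below the floor on both arrays, at 26.4 and 21.2 and at 12.8 and 17.8.

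Tnfsf8, the CD30 ligand, read 202 and 189, a difference of -0.09. Its receptor gene Tnfrsf8 read 43.5, below the floor, in Il34+/LacZ and 59.2 in Il34LacZ/LacZ, at least 1.16-fold higher. Tnfsf15, the ligand TL1A, read 65.0 and 64.3, and its receptor gene Tnfrsf25 58.4 and 76.5, a difference of 0.31. None of these 4 genes differed by as much as 1.5-fold on either scale.

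The BAFF system held the furthest higher reading as deposited. Tnfsf13b, which encodes BAFF, a survival factor of B cells that myeloid cells make, read 42.2, below the floor, in Il34+/LacZ and 94.9 in Il34LacZ/LacZ. That is at least 1.71-fold higher when set against the floor, and the measured difference was 0.93, or 0.72 with the trend removed. It stayed above 0 in the 8 settings that kept the gene, with 0.58 to 1.15, and the higher floor left it out. Of the 3 receptors, Tnfrsf13b (TACI) read 171 and 188, Tnfrsf13c (the BAFF receptor) 106 and 128, and Tnfrsf17 (BCMA) was below the floor at 23.2 and 38.6. Of 5 B cell markers with a probe set, Cd79a and Ms4a1 were below the floor on both arrays, at 16.2 and 29.4 and at 9.23 and 12.7. The other 3 were above it on at least 1 array, Cd79b at 67.2 and 60.4, Pax5 at 49.4 and 63.9 and Ighm at 52.5 and 77.1. Tnfrsf13b and Tnfrsf13c differed by 0.12 and 0.24, within 1 probe set SD.

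TRAIL and its death receptor were read near the floor. Tnfsf10, the death ligand TRAIL, read 49.3, just above the floor, in Il34+/LacZ and 28.3, below it, in Il34LacZ/LacZ. The measured difference was -0.56, and -0.88 with the trend removed, but against the floor it is only at least 1.01-fold lower. Tnfrsf10b, its death receptor in mice, read 64.5 and 58.9, a difference of -0.10.

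The neighbouring receptor genes on chromosome 7, Tnfrsf26, Tnfrsf22 and Tnfrsf23, did not read in one direction. Tnfrsf22 and Tnfrsf23 encode decoy receptors of TRAIL, and Tnfrsf26 is their relative. Tnfrsf23 read 147 and 81.0, 1.69-fold lower (-0.75), and -0.56 with the trend removed. Tnfrsf22 read 76.3 and 60.5, a difference of -0.27. Tnfrsf26 read 43.6, below the floor, and 84.2, at least 1.55-fold higher, with a measured difference of 0.75 and 0.51 with the trend removed. These genes are similar in sequence, and cross-hybridisation between their probe sets was not tested.

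The remaining receptors included one member at the edge of the threshold. Tnfrsf12a, the TWEAK receptor Fn14 of epithelial and injured tissues, read 510.5 and 335, a difference of -0.59 that came out just under 1.5-fold and was 0.04 with the trend removed. Tnfrsf21, the death receptor DR6, read 48.3, below the floor, and 71.2, at least 1.35-fold higher. Tnfrsf19, which encodes TROY, read 55.5 and 75.2, a difference of 0.35. Tnfrsf21 and Tnfrsf19 were above 0 in all 8 settings that kept them.

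**Figure D3:**
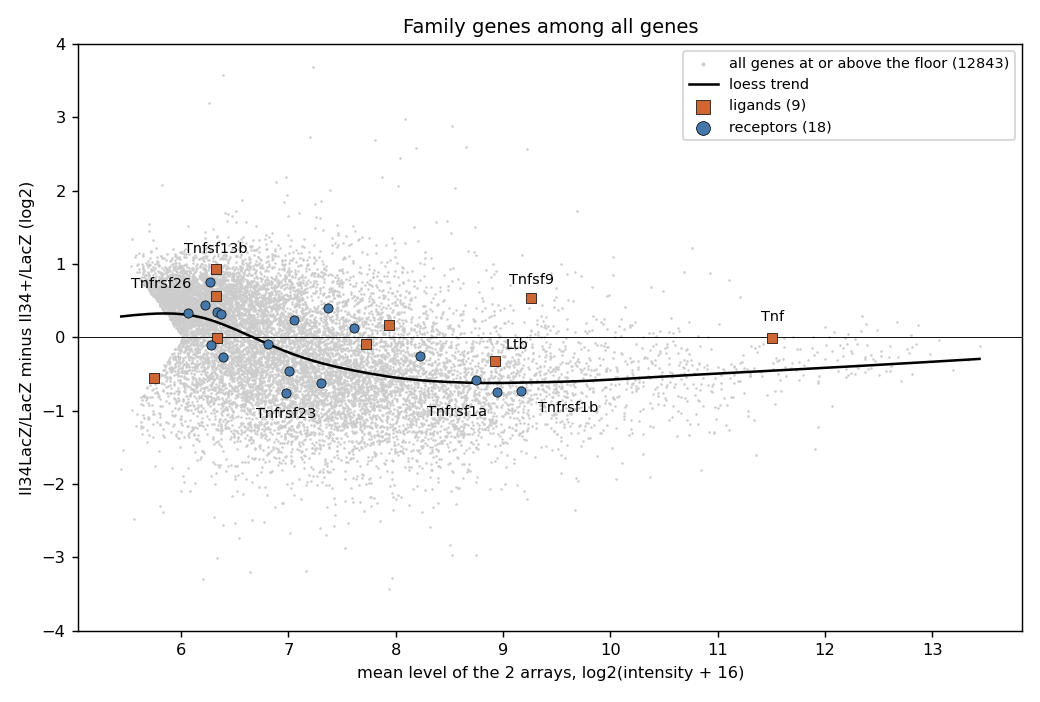
Difference against mean level for the 12843 genes at or above the floor (grey), with the 9 ligands (squares), the 18 receptors (circles) and the loess trend (line). Tnfrsf1a, Tnfrsf1b and Tnfrsf12a lie near the line, whereas Tnfsf9 lies 1.14 above it.

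As deposited, some neighbouring members read in one direction and others in opposite directions. Tnfrsf1b at -0.73 and Tnfrsf8 at 0.34 have no other protein-coding gene between them in RefSeq, nor do Tnfrsf4 at -0.26 and Tnfrsf18 at 0.39. Ltb and Tnf, adjacent on chromosome 17, differed by -0.33 and -0.00, and Tnfsf15 and Tnfsf8 by -0.01 and -0.09. Tnfsf9 and Tnfsf14, with 1 gene between them, read 0.53 and 0.56. Apart from Tnfrsf1b, each of these differences was within 1 probe set SD. With the trend removed Tnfsf15 and Tnfsf8 parted, at -0.22 and 0.39. Tnfrsf4 and Tnfrsf18 then read in one direction, at 0.33 and 0.77, so shared direction depended on the scale.

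Superfamily genes under other symbols were read in the same way. Of 5 such ligands 4 were at or above the floor, and none was 1.5-fold apart. Lta, the partner of Ltb, read 88.7 and 106, and Fasl, the ligand of the death receptor Fas, 111 and 90.6. Cd40lg, the CD40 ligand of activated T cells, read 33.6 and 53.0, and Eda, a ligand of skin appendage development, 34.3 and 58.3, both below the floor in Il34+/LacZ.

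Of 8 such receptors, 6 were at or above the floor, with 1 at least 1.5-fold higher and 1 lower. Cd40, the receptor through which T cells license dendritic cells, read 276 and 156, 1.70-fold lower (-0.76), or -0.26 with the trend removed. Ngfr, the nerve growth factor receptor p75, read 81.8 and 166, 1.86-fold higher (0.90), and 1.13 with the trend removed. Ltbr, the lymphotoxin beta receptor, read 166 and 117, a difference of -0.46, and Fas 69.5 and 52.6, one of -0.32.

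Of the 72 pathway genes at or above the floor, each counted once, 26 (36.1%) read lower in Il34LacZ/LacZ by 1.5-fold or more and 2 (2.78%) higher, beside 29.9% and 16% of all genes. After trend removal 14 (19.4%) were lower and 6 (8.33%) higher, beside 18.6% and 13.9%. The share of lower genes was thus near that of all genes once the trend was removed. These counts use measured differences, also where 1 array was below the floor. Among 10 TRAF adaptors and partners past the floor, 4 (40.0%, beside 29.9% of all genes) read at least 1.5-fold lower and none higher, with a median of -0.28 (after trend removal -0.04, with 3 lower and 1 higher). Tank, a TRAF-binding regulator of NF-kB, read 228 and 56.5, 3.36-fold lower, and stood at -1.51 with the trend removed. Tradd, the death domain adaptor of Tnfrsf1a, read 106 and 54.1, 1.74-fold lower and -0.89 with the trend removed. Traf1 was 1.58-fold lower. Traf3ip3, the last of the 4, was below the floor in Il34LacZ/LacZ (65.4 and 33.1), so against the floor it is only at least 1.26-fold lower.

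Of 10 genes of the receptor kinase and ubiquitin complex, 4 (40.0%, beside 29.9% of all genes) read lower and none higher, and the median was -0.44 (after trend removal -0.17, with 2 lower and 1 higher). Birc3, a ubiquitin ligase that restrains cell death, read 388 and 142, 2.56-fold lower. The IkB kinase gene Ikbkb read 509.8 and 234, 2.10-fold lower, the linear ubiquitin subunit Sharpin 359 and 169, 2.03-fold lower, and its partner Rbck1 was 1.56-fold lower. With the trend removed Birc3 stood at -0.81, Ikbkb and Sharpin at -0.46 and -0.47, and Rbck1 at -0.15.

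For the alternative NF-kB pathway, used by Cd40, Ltbr and RANK, the median of 6 genes was -0.15, or 0.26 after trend removal. Besides Birc3, which both lists hold, no gene of it was 1.5-fold apart as deposited. Nfkb2 read 349 and 248 and Relb 199.8 and 173, differences of -0.47 and -0.20. Birc2 read 165 and 226, a difference of 0.42, but its second probe set gave -0.26.

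For death receptor machinery the median of 10 genes was -0.32 (-0.16 after trend removal), with 4 genes (40.0%) at least 1.5-fold lower and none higher, beside 29.9% and 16% of all genes. After trend removal 3 of 10 were lower, beside 18.6%. Cflar, the inhibitor of caspase-8 activation, read 536 and 168, 2.99-fold lower, and its other 2 probe sets gave -1.06 and -0.38. Casp8 itself read 260.3 and 144, 1.73-fold lower. Dap was 3.25-fold lower (836 against 246) and Diablo, an antagonist of inhibitor of apoptosis proteins, 1.60-fold lower. With the trend removed Dap and Cflar stood at -1.08 and -0.99, Diablo at -0.67 and Casp8 at -0.31.

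Release of TNF from the membrane rests on Adam17, which read 258 and 84.2, 2.73-fold lower and -1.08 with the trend removed. The list of 7 release and processing genes had the lowest median of the pathway lists, -0.69 (-0.28 with the trend removed). In it 4 genes (57.1%) were lower and none higher, beside 29.9% and 16% of all genes, and 3 of 7 were lower with the trend removed, beside 18.6%. Sppl2a, an intramembrane protease that cleaves the TNF stub, read 754 and 199, 3.58-fold lower, its relative Sppl2b was 1.62-fold lower, and Adam10 read 173 and 73.3, 2.11-fold lower. Tnf itself differed by -0.00.

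Of 12 brakes on TNF signalling, 5 (41.7%, beside 29.9% of all genes) read at least 1.5-fold lower and none higher, and the median was -0.43 (after trend removal 0.02, with 2 lower and 1 higher). The deubiquitinases Otulin and Cyld were 2.18-fold and 1.80-fold lower, Spata2, the adaptor of Cyld, 1.87-fold and N4bp1 1.53-fold lower. With the trend removed they stood at -0.61, -0.28, -0.63 and 0.01. Of 10 genes named for induction by TNF or likeness to it, 4 (40.0%, beside 29.9% of all genes) read lower and 1 higher, and the median was -0.19 (after trend removal 0.09, with 1 lower and 2 higher). Tnfaip2 read 1320.2 and 721, 1.81-fold lower, Tnfaip1 was 1.79-fold and Tnfaip8l3 1.69-fold lower, and C1qtnf1, the gene counted as higher, read 20.8, below the floor, and 57.4, so that against the floor it is only at least 1.13-fold higher.

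**Figure D4:**
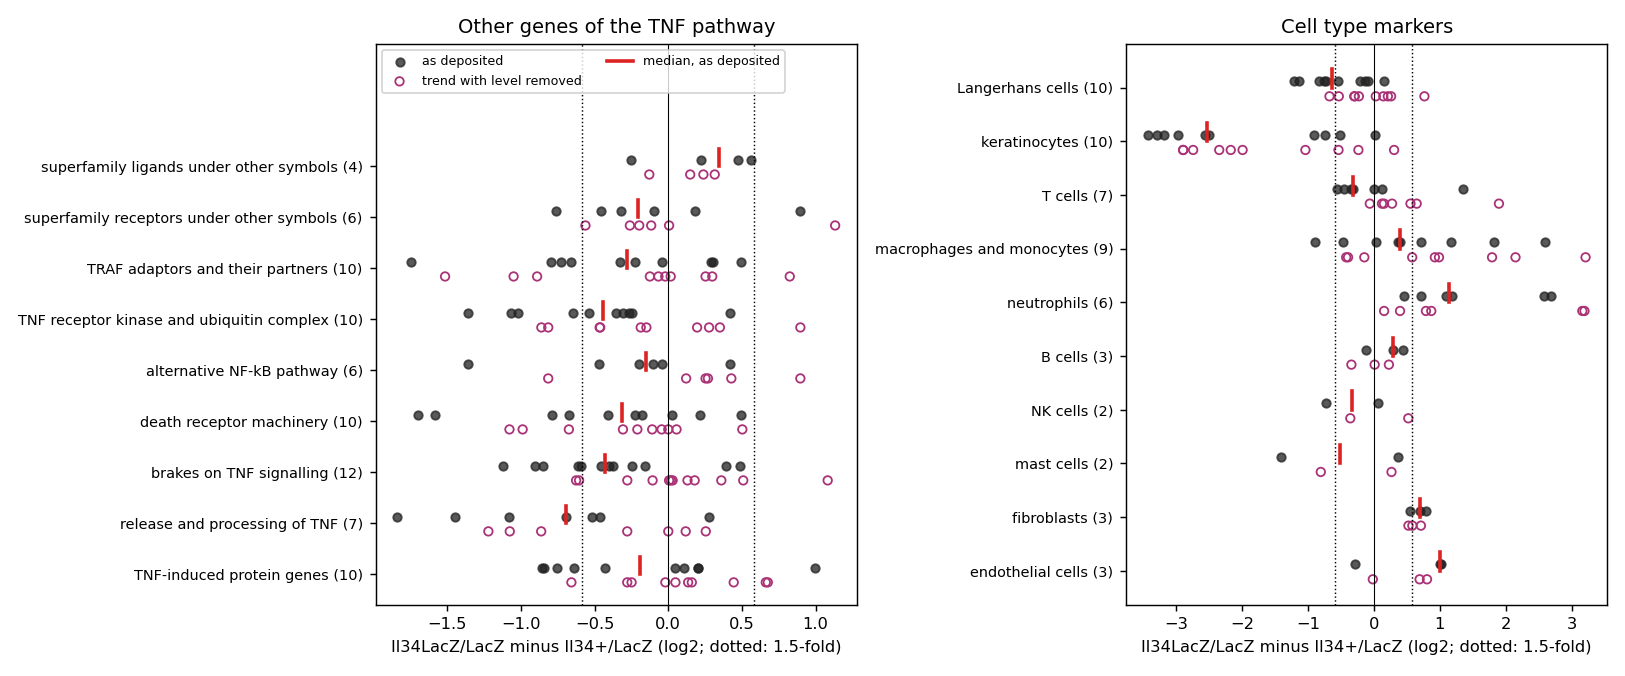
Differences of the genes at or above the floor (number in brackets) in 9 lists of the TNF pathway (left) and 10 lists of cell type markers (right), as deposited (filled) and with the trend removed (open), with the median as deposited as a bar. The pathway medians run from -0.69 for release and processing of TNF to 0.35 for ligands under other symbols, and keratinocyte markers lie at a median of -2.54.

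Markers of other cells also differed between the arrays. All 10 keratinocyte markers reached the floor, and their summed intensity was 4636 in Il34+/LacZ and 793 in Il34LacZ/LacZ. Of them 8 (80.0%) read at least 1.5-fold lower in the Il34LacZ/LacZ sample, beside 29.9% of all genes. With the trend removed 7 did, beside 18.6%. All 9 macrophage and monocyte markers with a probe set were at or above the floor, with sums of 1599 and 3043. Pf4 read 148 and 975, Ms4a7 64.8 and 270 and C1qa 256 and 599, whereas Adgre1 read 281 and 145, 1.85-fold lower. Of the 9 markers 4 (44.4%) were higher and 1 (11.1%) lower, beside 16% and 29.9% of all genes. With the trend removed 5 were higher and none lower, beside 13.9% and 18.6%. The sums of the 8 neutrophil markers were 338 and 1556, and S100a8 read 71.9 and 552 and S100a9 103 and 699. Camp, Ngp, Elane and Csf3r passed the floor only in Il34LacZ/LacZ, where they were at least 1.52-fold, 1.07-fold, 1.07-fold and 1.23-fold higher. Ltf and Cxcr2 were below the floor on both arrays. Ltf read 17.0 and 27.3, and Cxcr2 read lower in Il34LacZ/LacZ, at 33.6 and 25.5. The 7 T cell markers had sums of 7439.7 and 6771. Of them 1 (14.3%) was higher and none lower, beside 16% and 29.9% of all genes. With the trend removed 2 were higher and none lower, beside 13.9% and 18.6%. None of these lists had a marker at 0. Tnfrsf1a, Tnfrsf12a and Fas are known in keratinocytes and Tnfsf13b in myeloid cells, and the part of such cells in their differences was not tested.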

How the data were processed

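One processed intensity per probe set and array was deposited by the authors, on a linear scale. How probes were summarized, background removed and arrays scaled is not given in the sources used here. Per the labels' protocols, cells were sorted into lysis buffer and cRNA was made from 2 ng of RNA. The table held 34760 probe sets, of which 21640 carried 1 symbol in the platform annotation, 1321 several and 11799 none. Only the first were named, using the brightest on average where a gene had several, and all 31 members matched RefSeq by gene number.

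Computed here were log2(intensity + 16), the difference between genotypes, and the difference minus a loess trend on the mean level (fraction 0.3). A gene was used if either array reached the floor. Where the dimmer array was below it, the fold is a lower bound against the floor. Scripts were tested on simulated data. The members and lists were chosen with earlier results of these data known. Members at or above the floor were named with both values, and up to 4 genes per pathway or marker list by the size of their difference. Cd3e, Cd79a, Ms4a1, Elane, Csf3r, Ltf and Cxcr2 were named after their values were seen. Alternatives changed the pseudocount, floor, scaling, probe set rule and fold threshold. Scanner files were not analysed here. Python 3.11.15, numpy 2.4.6, pandas 2.3.3, statsmodels 0.14.6 and matplotlib 3.10.9 were used.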

Additional observations from a re-analysis of the deposited data

How the results depend on the processing

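With 1 array per genotype no alternative could give a test, and the number of arrays limits all precision. No paired analysis was possible because each genotype has 1 array. The count of members at least 1.5-fold higher in Il34LacZ/LacZ, 2 as reported, was 0 with a pseudocount of 64, with the floor at the 75th percentile and with 2-fold as the threshold, 5 with quantile normalization and 4 with the trend removed. The count of members lower, 4 as reported, was 2 with a pseudocount of 64, 7 with the arrays centred on their medians, 2 with quantile normalization, 1 with the trend removed and 0 at 2-fold. With a pseudocount of 1 the counts were 3 higher and 6 lower. A larger pseudocount shrinks every difference. The floor at the 75th percentile, 126.9, dropped both higher members, Tnfrsf26 and Tnfsf13b. Why the counts moved with the scaling was not tested. The scalings shifted the median of all genes by -0.15 (centring), 0.19 (quantile normalization) and 0.18 (trend removal). The members' median ran from -0.26 with the higher floor, which left 15 members, to 0.23 with quantile normalization. In the settings that kept them, 20 of 27 members kept one sign, 11 positive and 9 negative, and 7 did not. Only the scalings could turn a sign, because a change of pseudocount cannot. None of the 204 alternative values of single members moved by as much as the probe set SD. Each member has 1 probe set, so the probe set rule could not alter it. Nor could the floor settings, which only keep or drop a member. Of the 71 alternative medians of pathway lists, 1 moved by more, death receptor machinery with the higher floor at -1.19.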
